A study of Mus musculus with 15 samples.

Results

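Cells that did not express the reporter after 13 days of smooth muscle differentiation (day 13 GFP-) were compared with the undifferentiated mouse induced pluripotent stem cells (iPSC, day 0) from which the differentiation began. The comparison used 6 of the 15 arrays of the series, namely samples 3, 5 and 6 of each group, and all 25206 probe sets that were measured. The cells carried Acta2hrGFP, a green fluorescent reporter driven by the promoter of Acta2, the smooth muscle alpha-actin gene. The remaining arrays held, at 3 each, Kdr+ cells sorted on day 5, reporter-positive (GFP+) cells of day 13, and GFP+ cells from mouse aorta. The day 13 GFP- cells thus share the reporter and the induction with the GFP+ cells and differ from them by the sort gate, and the iPSC carry the same reporter without induction. All iPSC-derived samples came from this one reporter system, and the labels say neither whether the replicates were separate clones nor whether feeder cells were present. They call the samples biological triplicates and give no further detail, so the p-values measure the spread among these samples.

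Mouse iPSC are held in a naive pluripotent state by a network of transcription factors that includes Nanog, Esrrb and Klf4 around Pou5f1 and Sox2. They grow as tight epithelial colonies joined by E-cadherin. On the way to mesoderm, cells pass through a primed state marked by Otx2 and Fgf5 and then lose E-cadherin in an epithelial-to-mesenchymal transition. Vascular smooth muscle cells later accumulate contractile proteins and secrete a collagen-rich matrix.

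All levels are log2 RMA values, in which 1 unit is a factor of 2, and differences are day 13 GFP- minus the other group unless stated. A probe set was called when the adjusted p of limma, a linear model fitted over all 15 arrays, was under 0.05. The array has no presence calls, so a low level is not shown to lie above background, and folds that end at low levels depend on the floor of the array. GFP- sample 3 stood apart: its Pearson correlation over all probe sets was 0.977 with sample 5 and 0.978 with sample 6, against 0.995 between samples 5 and 6. The GFP+ sample of the same number stood apart in the same way, with 0.983 and 0.982 against 0.994. These are bulk samples, in which fewer cells of a type and less RNA per cell cannot be told apart.

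Acta2 checked the sort and the label. Its level was 7.35, 6.94 and 6.74 in the 3 iPSC samples and 10.67 ± 0.447 (SD, n = 3) in the GFP- samples, of which sample 3 was lowest at 10.16 and sample 6 had 10.85. This was a rise of 3.66 ± 0.229 (SE, n = 3 per group; 12.6-fold, adjusted p = 5.13e-09). The GFP+ samples had 11.23, 11.47 and 11.27. The groups sorted for and against the reporter did not overlap, but their difference of -0.65 was not called (adjusted p = 0.151 in limma), so the endogenous transcript was high in both sorts. The reporter itself was not measured by the array. Kdr, the receptor used to sort the day 5 cells, stood at 3.24 in iPSC, 9.64 on day 5 and 6.30 in GFP- cells.

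Against iPSC, GFP- cells had lower levels of the naive pluripotency genes and of nearly all germline genes of stem cells, and higher levels of most matrix, contractile and cardiac genes on the lists. Of 25206 probe sets, 8573 were called (34%): 4109 were higher (16.3%) and 4464 lower (17.7%). The samples of the groups did not overlap in 43.7%. The difference reached 2-fold or more in 1972 of the higher (7.82% of all probe sets) and 1885 of the lower (7.48%). Over all probe sets the median difference was -0.04. The plot of mean levels in iPSC against GFP- cells shows both arms.

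**Figure D1:**
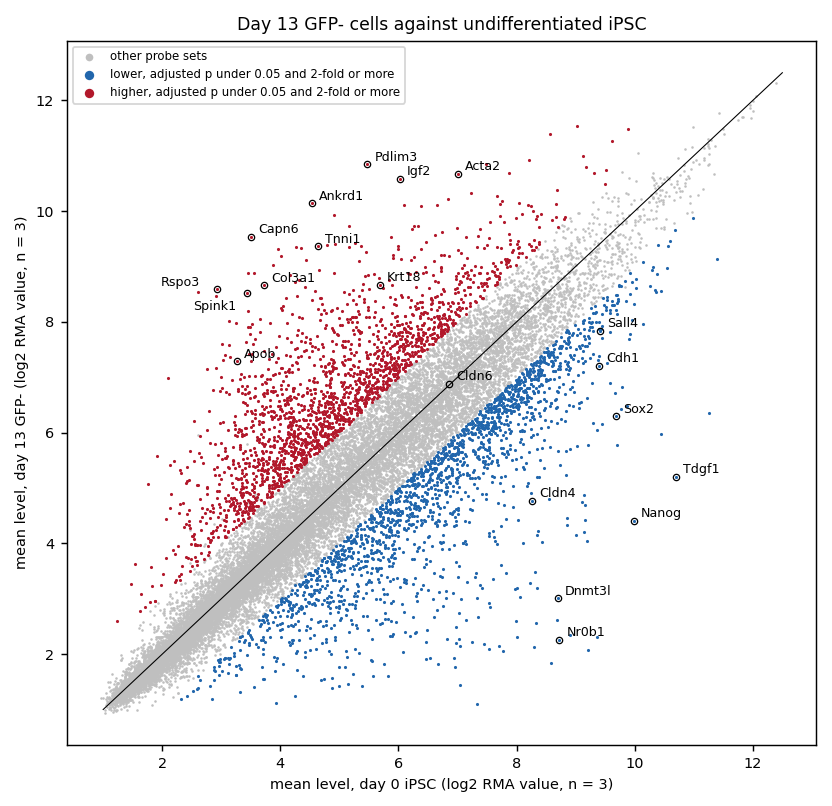
Mean log2 level of each probe set in 3 iPSC samples (horizontal axis) and 3 day 13 GFP- samples (vertical axis), with selected genes labelled and probe sets called at 2-fold or more in red (higher) and blue (lower). Capn6 and Rspo3 lie far above the diagonal and Nr0b1 and Dnmt3l far below it.

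The largest rises were in genes of varied function. Capn6, a calpain that lacks protease activity, stood at 3.47, 3.57 and 3.48 in iPSC and at 9.36, 9.59 and 9.65 in GFP- cells, a rise of 6.03 ± 0.133 (SE; 65.4-fold). Asb4, a substrate adaptor of ubiquitin ligases, rose by 5.94 (61.4-fold), and Rspo3, a secreted enhancer of Wnt signalling, by 5.67 (50.9-fold). Ankrd1, a stretch-responsive gene of striated muscle, rose by 5.62 (49-fold) from 4.53 to 10.14 and was still at 4.48 on day 5. Igfbp5, which binds insulin-like growth factors, rose by 5.36 from 3.96, with 4.56 on day 5. Amot, which encodes the junction protein angiomotin, rose by 5.15 and Rgs5, a regulator of G-protein signalling found in pericytes, by 5.33. Pcdh7, a protocadherin, rose by 5.56, Fbn2, the microfibril protein fibrillin 2, by 5.43, and Pdlim3, a Z-disc protein, by 5.37.

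The largest falls included a nuclear receptor of the naive network. Zfp981, a zinc finger gene, stood at 9.83, 9.02 and 9.23 in iPSC and at 2.40, 2.40 and 2.14 in GFP- cells, a difference of -7.04 ± 0.246 (SE; 132-fold). Nr0b1, that receptor, went from 8.98, 8.60 and 8.59 to 2.26, 2.25 and 2.25, a difference of -6.47 ± 0.129 (88.7-fold, adjusted p = 8.25e-14). Pla2g1b, a secreted phospholipase, fell by 6.06, Elobl, an elongin B-like gene, by 5.77, Lrrc34, a leucine-rich repeat gene, by 5.71 and Zfp534, a further zinc finger gene, by 5.61. On day 5 the means of these genes were between 1.90 and 2.99. Lrrc34 was called lower in GFP- cells than on day 5 as well, at 2.05 against 2.51, and Zfp981 did not overlap with day 5 but was not called.

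All 15 measured genes of the naive pluripotency list fell, against 17.7% of all probe sets, with a median difference of -3.75. The mean level of the list was 7.60 to 7.75 over the iPSC samples, 4.40 to 4.48 on day 5 and 4.04 to 4.18 in GFP- cells. For 13 of the 15 the fall was already called on day 5 against iPSC, where 13.9% of all probe sets were lower. Nanog, the homeodomain factor at the centre of the network, had fallen in part by day 5 and fell further after it. Its levels were 10.23, 9.83 and 9.88 in iPSC, 7.68, 7.30 and 7.27 on day 5 and 4.53, 4.52 and 4.19 in GFP- cells, so the 3 groups did not overlap. The fall from iPSC was -5.57 ± 0.186 (SE; 47.4-fold, adjusted p = 6.02e-12). The difference of -3.01 from day 5 was also called. Tcl1, a coactivator of Akt, fell by 5.02, Fgf4, a growth factor that starts exit from the naive state, by 4.93, Esrrb, an orphan nuclear receptor, by 4.51 and Zfp42 (Rex1), a naive marker, by 4.49. These 4 had reached their low level by day 5, and none of their differences between GFP- and day 5 cells was called.

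The Kruppel-like factors of the network were all lower than in iPSC. Klf4 went from 8.55 in iPSC to 4.46 on day 5 and 4.81 in GFP- cells (-3.75), and Klf2 from 6.98 to 4.22 and 4.32 (-2.65). Neither was called between day 5 and GFP- cells. Klf5 stood at 8.68 in iPSC, 5.46 on day 5 and 6.47 in GFP- cells, so it was lower than in iPSC by 2.21 and higher than on day 5 by 1.01 (adjusted p = 0.000318 in limma). Klf2 and Klf4 are also made by vascular cells and stood at 8.73 and 8.83 in aortic cells. Pecam1, an adhesion molecule of both stem cells and endothelium, had 7.99, 4.53 and 5.52 in the same order and was higher than on day 5 by 0.99 (adjusted p = 0.00433). Tbx3, a T-box factor shared by stem cells and mesoderm, peaked on day 5 at 9.44 and then stood at 6.64, which was 1.55 below iPSC. Klf5 and Pecam1 were the 2 naive-list genes called higher than on day 5 (12% of all probe sets were), and 4 were called lower (13.9% were). The smallest fall from iPSC was that of Gbx2, a homeobox gene, at -0.83.

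Pluripotency factors outside the naive network split in GFP- cells. Of 19 measured core and primed genes, 16 fell (84.2%, beside 17.7% of all probe sets) and the median difference was -2.05. The 3 that rose (15.8%) were near the 16.3% of all probe sets. The largest falls of the list included Utf1, a chromatin protein of stem cells (-5.69, 51.8-fold), Fbxo15, a target of Pou5f1 and Sox2 (-5.54), and L1td1, an RNA-binding protein (-4.40). Tdgf1, a co-receptor for Nodal, was kept to day 5 and fell after it: 10.71, 10.79 and 10.60 in iPSC, 10.46, 9.99 and 10.21 on day 5 and 4.59, 5.50 and 5.50 in GFP- cells. It fell by 5.50 against iPSC (45.4-fold) and by 5.02 against day 5. Zscan10, a zinc finger partner of Pou5f1, had the same course, at 6.75, 6.64 and 3.54. Lefty2 fell by 4.13 and Lefty1 by 2.05, both inhibitors of Nodal, and Nodal itself by 0.96.

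Pou5f1 (Oct4), the central factor of pluripotency, fell by less than Nanog did. It stood at 6.48, 6.82 and 6.41 in iPSC and at 4.65, 4.03 and 4.63 in GFP- cells, a fall of 2.13 ± 0.177 (SE; 4.38-fold). Its GFP- mean of 4.44 lay beside 4.55 in GFP+ cells and 4.29 in aortic cells. The further difference of -0.57 from day 5 was called (adjusted p = 0.0241), but not without GFP- sample 5 or without day 5 sample 5 or 6.

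Sox2, which is needed in pluripotent cells and in neural and endodermal progenitors, was higher in GFP- cells than on day 5. Its levels were 9.61, 9.76 and 9.66 in iPSC, 5.32, 5.30 and 5.52 on day 5, 6.87, 5.93 and 6.09 in GFP- cells and 5.67, 4.78 and 4.74 in GFP+ cells. GFP- cells were thus 3.38 ± 0.24 (SE) below iPSC (10.4-fold), 0.92 above day 5 (adjusted p = 0.00893) and 1.23 above GFP+ cells (adjusted p = 0.00729).

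Other genes of early pluripotent and progenitor cells stayed nearer to their iPSC level. Sall4, a zinc finger factor, had 9.43, 9.40 and 9.41 in iPSC and 7.98, 7.88 and 7.66 in GFP- cells, a fall of 1.57 ± 0.173 (SE; 2.97-fold), against 5.71 in GFP+ cells. Dnmt3b, a de novo DNA methyltransferase, went from 7.86, 7.31 and 7.40 to 6.93, 6.61 and 6.41, a fall of 0.88 (1.84-fold), while GFP+ cells had 4.63. Lin28a, which blocks maturation of let-7 microRNAs, fell by 0.99 and Trim71, a repressor of mRNAs that is itself a let-7 target, by 0.93. In Sall4, Dnmt3b, Lin28a and Trim71 the iPSC and GFP- samples did not overlap, and each was lower in GFP- cells than on day 5.

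The 3 genes of the list that rose were Fgf5, Otx2 and Lin28b, where 16.3% of all probe sets rose. Fgf5, a growth factor of the primed epiblast, stood at 3.94, 3.39 and 3.20 in iPSC, 5.51, 4.56 and 4.58 on day 5 and 6.42, 6.06 and 5.83 in GFP- cells, a rise of 2.59 ± 0.26 (SE; 6.03-fold) from iPSC and 1.22 from day 5. Otx2, a homeobox factor of the primed epiblast and of anterior endoderm and brain, had 7.31, 6.07 and 6.18 in iPSC and 8.65, 8.77 and 8.41 in GFP- cells, a rise of 2.09 ± 0.353 (4.25-fold, adjusted p = 0.000193). Lin28b, the paralogue of Lin28a, had 3.24, 3.60 and 3.70 in iPSC, 6.01 on day 5 and 5.02, 5.10 and 4.76 in GFP- cells, a rise of 1.45 (2.73-fold).

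Against GFP+ cells of the same day, 9 of the 19 core and primed genes were higher and none lower, where 2.52% of all probe sets were higher and 2.02% lower. The 9 were Otx2 (2.13), Sall4 (2.13), Fgf5 (2.08), Dnmt3b (2.02), Lin28a (1.46), Sox2 (1.23), Trim71 (1.20), Lin28b (1.05) and Nodal (0.97). Of the naive list, Pecam1 (1.28), Tfcp2l1, a grainyhead-family factor (0.93), and Tbx3 (0.68) were higher. Nanog, at 4.41 against 3.79, was not called (adjusted p = 0.0769) unless equal sample numbers were treated as pairs (adjusted p = 0.0323). With that pairing Klf4 was called lower than in GFP+ cells, at 4.81 against 5.31 (adjusted p = 0.0496).

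**Figure D2:**
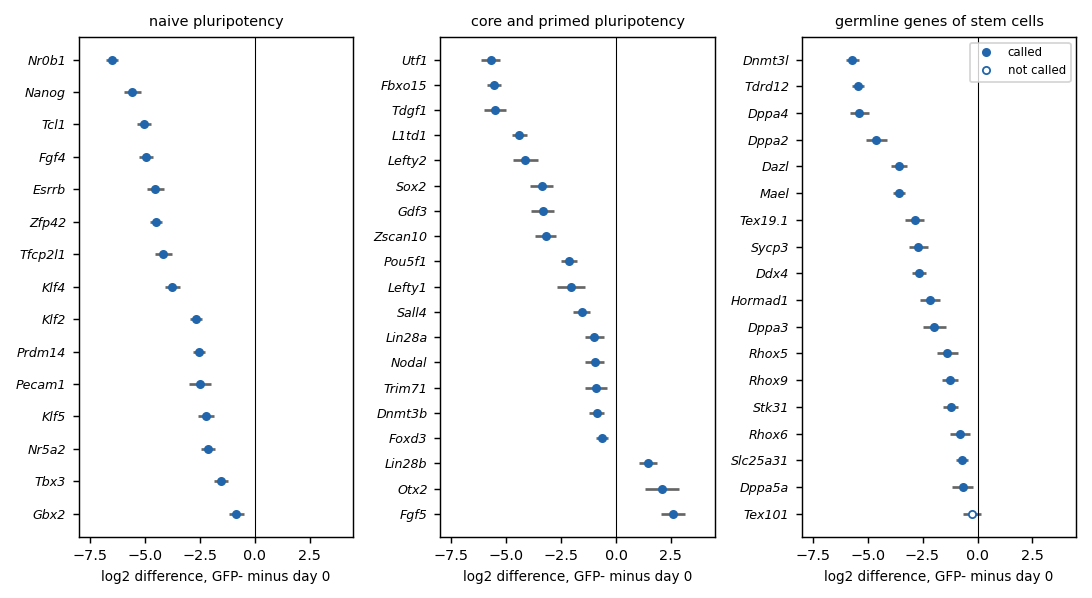
Difference of day 13 GFP- minus iPSC for every measured naive, core and primed, and germline gene, as log2 with 95% intervals from limma (3 samples per group). Points lie left of 0 for the naive list, while Fgf5, Otx2 and Lin28b lie right of 0.

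Mouse pluripotent cells also express genes that are otherwise read in germ cells, and GFP- cells had these at a low level. Of 18 measured genes on the germline list, 17 were lower in GFP- cells (94.4%, beside 17.7% of all probe sets) and none higher. The median difference was -2.41, and 17 were lower on day 5 against iPSC as well (beside 13.9%). Dnmt3l, a cofactor of de novo methylation, stood at 8.82, 8.65 and 8.62 in iPSC and at 3.00, 3.01 and 3.02 in GFP- cells, a fall of 5.69 ± 0.133 (SE; 51.7-fold, adjusted p = 1.77e-13). Tdrd12, of the piRNA pathway, fell by 5.44, Dppa4 by 5.39 and Dppa2 by 4.61 (both chromatin factors of early embryos), Dazl, an RNA-binding protein of germ cells, by 3.58, and Mael, a further piRNA factor, by 3.56. Sycp3, of the synaptonemal complex, fell by 2.69, Ddx4 (Vasa), a germ cell helicase, by 2.67, and Hormad1, of meiotic chromosome axes, by 2.16. Tex101, a germ cell surface protein, was the gene not called, at -0.24.

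Rhox5, an X-linked homeobox gene, was the germline-list gene that came back in part. It stood at 7.28, 7.62 and 7.67 in iPSC, 4.06, 4.02 and 4.53 on day 5 and 6.14, 6.16 and 6.13 in GFP- cells. It was 1.38 ± 0.227 (SE) below iPSC (2.6-fold) and 1.94 above day 5 (3.83-fold, adjusted p = 8.96e-06), and no other gene of the list was called between GFP- cells and day 5. GFP+ cells had a mean of 6.12 and aortic cells 5.58, and no germline gene was called between the 2 sorts.

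The promoters of 4 germline genes that fell are shown by the stretch that holds CACGTG, the E-box letters, in capitals. The window searched runs from 250 bases before to 50 bases after each annotated start, from RefSeq on GRCm38.p6, and the motif reads the same on both strands. It was chosen after values were seen. Each sequence is on the strand of its gene: Dnmt3l at chr10:78049732-78049841 (plus strand, one of 3 annotated starts), Ddx4 at chr13:112652311-112652420 (minus), Sycp3 at chr10:88459473-88459586 (plus) and Hormad1 at chr3:95559567-95559676 (plus).
Dnmt3l: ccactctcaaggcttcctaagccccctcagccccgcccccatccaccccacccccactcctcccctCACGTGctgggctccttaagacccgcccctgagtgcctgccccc
Ddx4: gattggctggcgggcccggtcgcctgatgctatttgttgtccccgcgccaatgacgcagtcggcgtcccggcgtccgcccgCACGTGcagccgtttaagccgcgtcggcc
Sycp3: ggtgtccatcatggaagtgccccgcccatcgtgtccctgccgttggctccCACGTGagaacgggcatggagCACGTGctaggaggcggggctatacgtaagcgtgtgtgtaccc
Hormad1: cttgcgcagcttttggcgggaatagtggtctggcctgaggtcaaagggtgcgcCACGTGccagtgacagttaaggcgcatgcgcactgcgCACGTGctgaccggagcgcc

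CACGTG occurred in the promoters of 7 of the 12 germline-list genes that matched the RefSeq table (58.3%): Ddx4, Dnmt3l, Hormad1, Mael, Slc25a31, Stk31 and Sycp3. It occurred in those of 8.09% of 27025 genes and of 9.19% of the 17708 measured genes in the table. By gene, it was in 4 of 17 of the epithelial list (23.5%), 2 of 11 of the naive list (18.2%) and 2 of 14 of the core and primed list (14.3%). For the serum protein list it was 1 of 21 genes (4.76%) and for the contractile list none of 16. Of 48 matched genes that were lower by 4 log2 units or more it was in 5 (10.4%). A match is a description of these letters and not a site shown to be bound. Slc25a31, a mitochondrial carrier of germ cells, fell by 0.69, and Stk31, a germ cell kinase-like protein, by 1.23.

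The epithelial genes of iPSC divided into some that were lower in GFP- cells, some that stood near the iPSC level, and a few that were higher than in iPSC. Of 30 measured genes of epithelial junctions and surface, 21 were lower than in iPSC (70%, beside 17.7% of all probe sets). Another 2 were higher (6.67%, beside 16.3%) and 7 not called, with a median difference of -0.77. On day 5, 26 of the 30 had been lower than in iPSC (86.7%, beside 13.9%) and 1 higher (3.33%, beside 14.9%). From day 5 to day 13, GFP- cells were higher in 10 (33.3%, beside 12%). They were lower in 4 (13.3%), near the 13.9% of all probe sets. The day 5 samples are shared by the last 2 comparisons, and the iPSC samples by the first 2, so the counts are given side by side only. The mean level of the list was 6.06 to 6.19 over the iPSC samples, 4.80 to 4.84 on day 5, 5.17 to 5.38 in GFP- cells and 4.37 to 4.64 in GFP+ cells, and these ranges did not overlap.

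Cdh1, which encodes E-cadherin, was low on day 5 and at an intermediate level in GFP- cells. Its levels were 9.48, 9.45 and 9.27 in iPSC, 4.86, 4.85 and 4.87 on day 5, 7.57, 7.14 and 6.92 in GFP- cells and 4.82, 4.42 and 4.13 in GFP+ cells. GFP- cells were 2.19 ± 0.187 (SE) below iPSC (4.56-fold), 2.35 above day 5 (5.1-fold, adjusted p = 1.77e-07) and 2.76 above GFP+ cells (6.76-fold, adjusted p = 6.39e-07). In aortic cells the mean was 3.94.

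The tight junction gene Cldn6 stood at the iPSC level. It had 7.32, 6.94 and 6.29 in iPSC, 3.53, 3.62 and 3.50 on day 5 and 6.94, 6.81 and 6.89 in GFP- cells, which lay inside the iPSC range. The difference from iPSC was 0.03 with a 95% interval of -0.42 to 0.48, and that from day 5 was 3.33 ± 0.21 (SE; 10.1-fold, adjusted p = 1.56e-08). GFP+ cells had 3.97, 3.80 and 3.75. Ocln, which encodes the tight junction protein occludin, had 5.85, 5.75 and 5.51 in iPSC, a mean of 3.73 on day 5, and 5.90, 6.03 and 5.46 in GFP- cells. Its difference from iPSC was 0.09 (95% interval -0.40 to 0.58) and that from day 5 was 2.07 (4.19-fold, adjusted p = 5.2e-06). F11r, the junctional adhesion molecule A, had 7.44 in iPSC, 6.49 on day 5 and 7.52 in GFP- cells (difference from iPSC 0.08, interval -0.38 to 0.54).

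A gene was counted as near its iPSC level when the 95% interval of its difference lay within 1 log2 unit on either side of 0. This held for 12 of the 30 epithelial genes and for 72% of all probe sets. Of the 12, 7 were not called: Cldn6, Ocln, F11r, Pkp2 (a desmosomal plakophilin), Spint2 (a serine protease inhibitor), Ovol2 (an epithelial repressor) and Cldn1. The other 5 were lower by less than 1 unit, among them Cldn7, with 4.76 in iPSC, 2.96 on day 5 and 4.11 in GFP- cells (-0.66 from iPSC and 1.14 from day 5). A p that misses the threshold does not show that levels are alike, and the interval gives the range that these samples allow. Dpp4, a surface dipeptidase, Gramd1b, a sterol transfer protein, and Fzd5, a Wnt receptor, were chosen after their values were seen. They had 5.00, 6.80 and 6.48 in iPSC and 5.08, 6.86 and 6.40 in GFP- cells, which were 2.47, 2.86 and 1.76 above day 5.

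**Figure D3:**
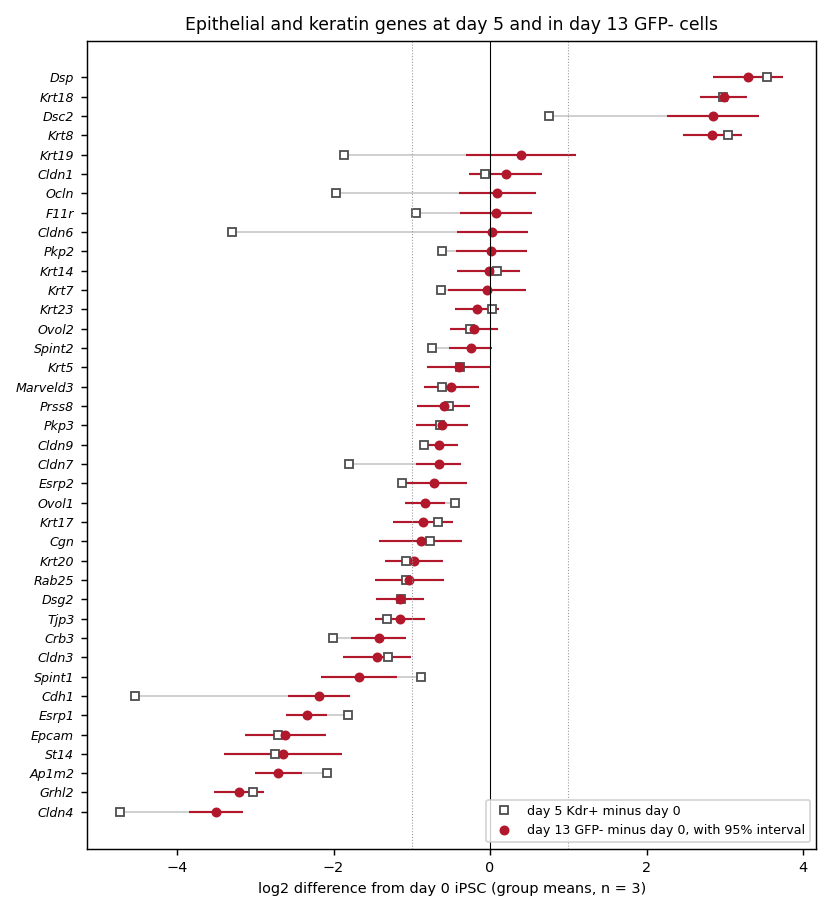
Differences from iPSC of the epithelial and keratin genes on day 5 (squares) and in day 13 GFP- cells (points), as log2 with 95% intervals from limma and dotted lines at 1 unit either side of 0. Cldn6, Ocln and F11r lie near 0 in GFP- cells and left of it on day 5, while Grhl2 and Ap1m2 lie left of 0 in both.

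Other epithelial genes of iPSC stayed low. Epcam, an adhesion molecule of stem cells and epithelia, had 8.78, 8.93 and 8.77 in iPSC, 6.31, 6.01 and 6.01 on day 5 and 6.30, 6.32 and 6.01 in GFP- cells. It was 2.62 ± 0.243 (SE) below iPSC (6.13-fold), and the 0.10 difference from day 5 was not called (adjusted p = 0.869), yet it was 2.15 above GFP+ cells (4.43-fold, adjusted p = 8.79e-05). Grhl2, a transcription factor that maintains epithelial identity, went from 6.38 in iPSC to 3.35 on day 5 and 3.17 in GFP- cells, with 3.21 in GFP+ cells. Esrp1, an epithelial splicing regulator, was 2.34 below iPSC and 0.53 below day 5, and Ap1m2, a sorting adaptor of epithelia, 2.71 below iPSC and 0.63 below day 5. St14, the membrane protease matriptase, was 2.65 below iPSC and not called against day 5. Cldn4, a further tight junction gene, had 7.88, 8.47 and 8.46 in iPSC, 3.54 on day 5 and 4.73, 4.84 and 4.72 in GFP- cells, so it was 3.50 below iPSC (11.3-fold) and 1.22 above day 5.

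The genes above their iPSC level were the desmosomal genes Dsp and Dsc2 and the keratins Krt8 and Krt18. Dsp, Krt8 and Krt18 had already reached the higher level on day 5. Dsp, which encodes desmoplakin, stood at 5.88, 5.82 and 6.01 in iPSC, 9.45 on day 5 and 9.12, 9.35 and 9.13 in GFP- cells, a rise of 3.30 ± 0.209 (SE; 9.84-fold). Dsc2, a desmosomal cadherin, had 3.80, 3.20 and 3.56 in iPSC, 4.27 on day 5 and 6.96, 6.07 and 6.06 in GFP- cells, a rise of 2.84 (7.18-fold) from iPSC and of 2.10 from day 5. Dsp and Dsc2 are also read in cardiac muscle, and Dsp stood at 8.51 in aortic cells.

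Of 9 measured keratins, 2 rose (22.2%), 2 fell (22.2%) and 5 were not called (median -0.04). These shares were near those of all probe sets, at 16.3% higher and 17.7% lower. The 2 that fell were Krt17 (-0.86) and Krt20 (-0.98). Krt18 had 5.48, 5.92 and 5.65 in iPSC, 8.66 on day 5 and 8.50, 8.83 and 8.67 in GFP- cells, a rise of 2.99 ± 0.142 (SE; 7.92-fold). Its partner Krt8 rose by 2.84 (7.15-fold) from 5.26, with 8.30 on day 5. Both keratins of simple epithelia were higher in GFP- than in GFP+ cells, Krt8 by 1.63 and Krt18 by 1.61. Krt19, a keratin of simple and ductal epithelia, had 5.30, 5.51 and 5.16 in iPSC, 3.66, 3.27 and 3.41 on day 5 and 6.22, 5.63 and 5.29 in GFP- cells. It was 2.26 above day 5 (4.8-fold) and not called against iPSC (0.39, 95% interval -0.31 to 1.09). Its 1.17 difference from GFP+ cells was not called (adjusted p = 0.0602), except with equal sample numbers paired (adjusted p = 0.0163). The basal keratins Krt5 and Krt14 were not called against iPSC, at -0.40 and -0.02.

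Against GFP+ cells, 13 of the 30 epithelial genes were higher (43.3%) and none lower, where 2.52% of all probe sets were higher and 2.02% lower. The list's median difference was 0.61 against -0.01 over all probe sets. The count was 12 without GFP- sample 3, 15 without both day 13 samples numbered 3 and 14 with equal sample numbers paired. Besides Cldn6 (3.04), Cdh1 (2.76) and Epcam (2.15) these included Dsg2, a desmosomal cadherin (1.84), Spint1, a protease inhibitor (1.46), Dsc2 (1.46), Esrp1 (1.35), Prss8, a membrane protease (1.34), and Ocln (1.25).

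GFP- cells also held transcripts of endodermal tissue that iPSC had at a low level. Of 17 measured endoderm transcription factors, 8 were higher than in iPSC (47.1%, beside 16.3% of all probe sets) and none lower. The median difference was 0.42 (without iPSC sample 3, 1 was lower). Against day 5, 6 were higher (35.3%, beside 12%) and 3 lower (17.6%, beside 13.9%). Gata4 and Gata6, zinc finger factors of endoderm and heart, rose by 3.97 and 3.94, and both had reached this level on day 5 (8.65 and 8.16). Eomes, a T-box factor of early mesendoderm, was 2.88 above iPSC and falling from day 5, with 9.88 on day 5 and 7.52 in GFP- cells. Foxa1, a pioneer factor of endodermal organs, changed after day 5: it had 3.73, 3.97 and 3.59 in iPSC, 3.85 on day 5 and 5.66, 5.76 and 5.62 in GFP- cells, a rise of 1.92 ± 0.14 (SE; 3.78-fold). GFP+ cells had 3.81, a difference of 1.86 (adjusted p = 1.74e-06).

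Secreted proteins of visceral endoderm, liver and gut were at low levels on day 5 and higher in GFP- cells. Of 24 measured apolipoprotein and serum protein genes, 12 were higher than in iPSC and 3 lower (median 0.43). The lower ones were Trf, Apoc2 and Apoa2, the latter pair chosen after their values were seen. Spink1, a trypsin inhibitor, had 3.71, 3.27 and 3.32 in iPSC, 3.11 on day 5, 8.42, 8.69 and 8.43 in GFP- cells and 5.06, 4.42 and 4.08 in GFP+ cells. It was 5.08 ± 0.207 (SE) above iPSC (33.8-fold) and 16-fold above GFP+ cells. Apob, the structural protein of lipoproteins, had 3.30, 3.10 and 3.41 in iPSC, 3.31 on day 5 and 6.80, 7.49 and 7.58 in GFP- cells, a rise of 4.02 ± 0.237 (16.2-fold), and was 3.50 above GFP+ cells (11.3-fold). Apoa1, of high-density lipoprotein, rose by 2.98 (7.91-fold), and Trf, which encodes the iron carrier transferrin, fell by 2.57. Pga5, a pepsinogen outside the list, rose by 5.08 from 4.27. Afp, the fetal serum protein, and Fgb, a fibrinogen chain, were chosen after their values were seen. Afp rose by 2.21 from 3.48 and Fgb by 1.96 from 2.45, and all 3 had a lower mean on day 5 than in iPSC.

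Between the sorts, 2.52% of all probe sets were higher in GFP- than in GFP+ cells and 2.02% lower. For the secreted proteins 11 of 24 were higher (45.8%) and none lower, and for the transcription factors 9 of 17 (52.9%) and none lower. The latter count was 7 without GFP- sample 3 and 6 without both day 13 samples numbered 3. Whether the endodermal and the epithelial transcripts come from the same cells was not tested.

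The mesodermal side of GFP- cells was broad. Of 20 measured contractile genes of smooth muscle, 15 were higher than in iPSC (75%, beside 16.3% of all probe sets) and none lower (median 1.75). Against GFP+ cells 5 of the 20 were lower (25%) and 1 higher (5%), beside 2.02% and 2.52% of all probe sets, with a median difference of -0.37. The lower ones were Actg2, Itga8, Myl9, Tagln and Tpm2, all but Tagln named after their values were seen, and the higher one was Myocd. Myocd, the coactivator that drives contractile genes, had 3.16, 3.44 and 3.34 in iPSC, 4.79 on day 5 and 6.95, 7.09 and 6.87 in GFP- cells, a rise of 3.66 (12.6-fold). It stood at 5.53 in GFP+ cells, so GFP- cells were 1.44 higher (adjusted p = 3.34e-05). Tagln, an actin-binding protein of smooth muscle, had 5.46, 5.24 and 5.54 in iPSC and 8.08, 8.54 and 8.44 in GFP- cells, a rise of 2.94 (7.67-fold), and was 1.04 below GFP+ cells (adjusted p = 0.00167). Tpm1, a tropomyosin, rose by 2.95. Myh11, the smooth muscle myosin heavy chain, was chosen after its values were seen: it had 4.22 in iPSC, 4.36 in GFP- cells, 4.64 in GFP+ cells and 11.03 in aortic cells, and its difference from iPSC was not called (adjusted p = 0.57).

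Nearly all matrix genes rose, and several varied widely among the GFP- samples. Of 27 measured genes 25 were higher than in iPSC (92.6%, beside 16.3% of all probe sets) and 1 lower (3.7%, beside 17.7%; median 2.55). The lower one was Col18a1 (-0.96), named after its values were seen, and its call was lost without any 1 of iPSC samples 3, 5 and 6 or GFP- samples 5 and 6. Col3a1, a fibrillar collagen, had 4.06, 3.80 and 3.32 in iPSC and 7.81, 8.85 and 9.33 in GFP- cells, a rise of 4.94 ± 0.284 (SE; 30.7-fold). Postn, which encodes the matricellular protein periostin, had a mean of 4.03 in iPSC and 5.73, 9.22 and 9.69 in GFP- cells, so sample 3 was far below the others. Its rise was 4.18 ± 0.739 (18.2-fold), 5.43 without GFP- sample 3 and 3.45 without GFP- sample 6. Col12a1, a fibril-associated collagen, had 7.08, 9.43 and 9.77 and rose by 4.44, or by 5.28 without GFP- sample 3. Against GFP+ cells 11 of the 27 were lower (40.7%) and none higher, where 2.02% of all probe sets were lower. The lower count was 9 without GFP- sample 3, 14 without both day 13 samples numbered 3 and 15 with equal numbers paired.

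Of 11 mesenchymal genes, 9 were higher than in iPSC (81.8%, beside 16.3% of all probe sets) and none lower (median 1.83). Cdh2, which encodes N-cadherin, rose by 4.17 and stood at 5.26 in iPSC, 9.80 on day 5 and 9.43 in GFP- cells. Cdh11, a cadherin of mesenchyme, rose by 4.29, with 8.09, 9.33 and 9.42 in the GFP- samples. Zeb2, a repressor of E-cadherin, rose by 2.92 and stood at 4.10 in iPSC, 7.19 on day 5 and 7.02 in GFP- cells. GFP- cells thus held Cdh1 and Cdh2 transcripts in the same bulk samples, and whether single cells held both was not measured.

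**Figure D4:**
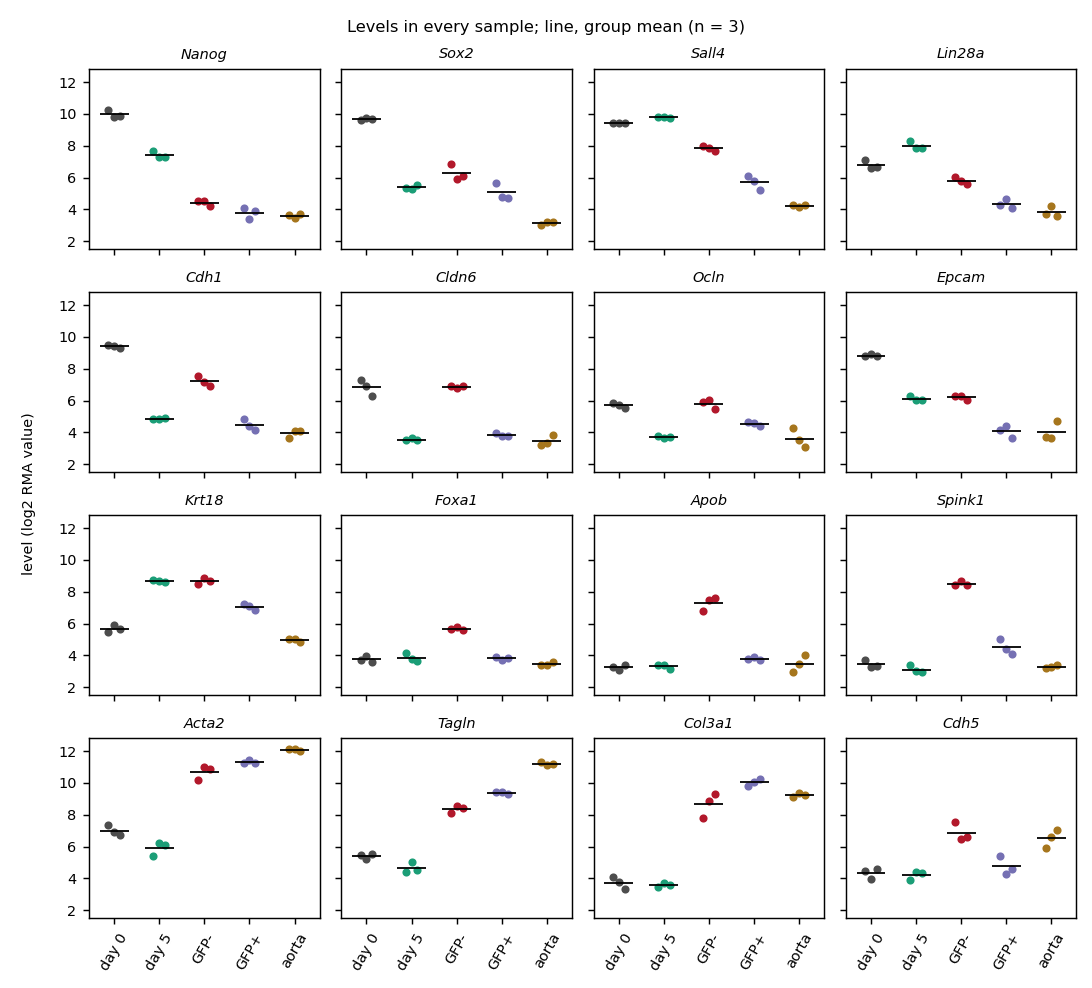
Log2 levels of 16 genes in each sample of the 5 groups (3 samples each), with a line at each group mean. Cldn6 in GFP- cells overlaps iPSC and not day 5, and Sox2 and Cdh1 in GFP- cells lie between iPSC and day 5.

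Markers of other cell types are given by list, beside 16.3% of all probe sets higher and 17.7% lower, and their part in the results above was not tested. The shares of the blood list lay below both, and the mesothelial and trophoblast lists are short. Of 20 cardiac muscle genes 13 were higher and 1, Actn2, lower, with a mean level of the list of 3.95 to 4.03 in iPSC, 5.27 to 6.10 in GFP- cells and 5.21 to 5.89 in GFP+ cells. Tnni1, the slow skeletal and fetal cardiac troponin I, rose by 4.72 (26.4-fold), Tnnt2, cardiac troponin T, by 4.20 and Tbx20, a cardiac T-box factor, by 3.76. Of 20 endothelial genes 7 were higher and 5 lower, or 3 lower without iPSC sample 3 or without GFP- sample 3. The lower ones were Pecam1, Vwf, Tek, Mmrn2 and Eng. The list had means of 4.43 to 4.46 in iPSC, 4.93 to 5.16 in GFP- cells and 4.63 to 4.66 in GFP+ cells. Cdh5, the cadherin of endothelial junctions, had 4.45, 3.97 and 4.59 in iPSC and 7.53, 6.47 and 6.62 in GFP- cells, a rise of 2.54 (5.81-fold), and was 2.10 above GFP+ cells (adjusted p = 0.00144). Erg and Ets1, factors of endothelium, rose by 2.70 and 2.93.

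Of 11 leukocyte genes none was higher and 8 were lower, or 5 without GFP- sample 5, with list means of 4.54 to 4.58 in iPSC and 3.59 to 3.74 in GFP- cells. The pan-leukocyte gene Ptprc had 2.29 in iPSC and 1.92 in GFP- cells, and the macrophage receptor gene Csf1r 4.20 and 3.75. Laptm5, a lysosomal protein of blood cells, was the largest of these falls, from 9.15 to 4.70. Of 12 early blood genes 1 was higher (8.33%), Runx1, a factor of blood and mesenchyme (3.16), and 1 lower, Myb, a factor of progenitor cells (-1.36), with list means of 3.54 to 3.64 and 3.68 to 3.96. Hbb-bh1, the embryonic globin, had 2.34 in iPSC and 2.25 in GFP- cells. Of 13 fibroblast genes 9 were higher and 2, Thy1 and Mfap5, lower, with list means of 4.26 to 4.51 in iPSC, 5.31 to 6.00 in GFP- cells and 6.21 to 6.63 in GFP+ cells. Of 10 mesothelial genes 3 were higher (Aldh1a2, Wt1 and Upk1b) and 1, Msln, lower, with list means of 3.62 to 3.73 and 3.89 to 3.91.

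Of 13 neural genes 3 were higher (Ncam1, Nes and Pax3) and 5 lower (Stmn2, Map2, Olig2, Elavl3 and Sox1), with list means of 4.88 to 4.99 in iPSC and 4.61 to 4.70 in GFP- cells. Ncam1, a cell adhesion molecule of neural and mesodermal cells, rose by 3.65. Stmn2, a microtubule regulator of neurons, fell by 2.69, or by 1.75 without GFP- sample 3, whose level was 5.04 against 7.80 and 7.86. Of 9 trophoblast genes 2 were higher (Gata3 and Plac1) and 3 lower (Tfap2c, Ascl2 and Gata2), with list means of 4.21 to 4.29 and 3.77 to 3.92. The higher count was 1 without sample 3 or sample 5 of iPSC or of GFP- cells. Tfap2c, a factor of trophoblast and germ cells, fell by 3.34. Of the markers in these lists, Actn2, Vwf, Tek, Mmrn2, Eng, Thy1, Mfap5, Upk1b, Pax3, Olig2, Elavl3, Sox1 and Plac1 were named after their values were seen.

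Cell cycle genes were lower in GFP- cells than in iPSC and on day 5. Of 27 measured proliferation genes 25 were lower than in iPSC (92.6%, beside 17.7% of all probe sets) and none higher (median -1.28). Against day 5, 26 were lower (96.3%, beside 13.9%). On day 5 against iPSC, 5 were lower (18.5%) and 3 higher (11.1%), with a median of -0.05. Those shares were near the 13.9% and 14.9% of all probe sets. Ccne1, which encodes cyclin E1, went from 8.68 in iPSC to 7.96 on day 5 and 6.17 in GFP- cells, a fall of 2.50. Bub1, a spindle checkpoint kinase, fell by 2.39, Rrm2, of ribonucleotide reductase, by 2.26 and Mcm5, of the replicative helicase, by 2.23. Mki67, chosen after its values were seen, was not called (-0.47, adjusted p = 0.12). Against GFP+ cells 11 of the 27 were higher (40.7%), where 2.52% of all probe sets were. This count was 7 without GFP- sample 3, 3 without both day 13 samples numbered 3 and 16 with equal numbers paired. A list of 12 cyclin-dependent kinase inhibitors and senescence-linked genes also held the cyclin genes Ccnd1 and Ccnd2. Of these 12, 3 rose (25%) and 2 fell (16.7%), near the 16.3% and 17.7% of all probe sets. Ccnd2, which encodes cyclin D2, rose by 2.50, Cdkn1b (p27) by 1.95 from 5.78 and Cdkn1a (p21) by 1.38 from 9.31. Trp53inp1 (-0.75) and Ccnd1 (-0.63, named after its values were seen) fell, and this count was 1 without iPSC sample 3 or without GFP- sample 3 or 5.

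The DNA methylation machinery shifted in opposite directions by gene. Of 10 measured genes 7 fell (70%, beside 17.7% of all probe sets), with a median of -1.16. The 2 that rose (20%) were near the 16.3% of all probe sets. Tet1, a dioxygenase that oxidises methylcytosine and is high in stem cells, fell by 3.12 from 9.29, and Tet3, its relative, rose by 1.91 from 5.51. Dnmt3a, a de novo methyltransferase named after its values were seen, rose by 0.89. Dnmt3l fell by 5.69, as above, and Uhrf1, which guides maintenance methylation, by 1.80.

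Among 529 microRNA probe sets, 57 were higher (10.8%) and 39 lower (7.37%) than in iPSC. Such probe sets can detect precursor transcripts, and their values do not show the levels of mature microRNAs. The mature sequences of those the results turn on are given from RefSeq on GRCm38.p6, with the seed, bases 2 to 8, in capitals, because 4 of them share the letters AAGUGC in the seed and the other 2 share the let-7 seed. They lie at chr7:3218674-3218697 (miR-290a, plus strand), chr3:127545275-127545297 and chr3:127545665-127545687 (miR-302b and miR-302d, plus), chr14:115044183-115044205 (miR-20a, plus), chr17:17830366-17830387 (let-7e, plus) and chr10:122985698-122985719 (let-7i, minus).
mmu-miR-290a-3p: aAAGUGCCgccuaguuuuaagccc
mmu-miR-302b-3p: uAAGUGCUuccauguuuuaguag
mmu-miR-302d-3p: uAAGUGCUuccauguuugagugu
mmu-miR-20a-5p: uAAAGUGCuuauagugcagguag
mmu-let-7e-5p: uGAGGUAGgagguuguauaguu
mmu-let-7i-5p: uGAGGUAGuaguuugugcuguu

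The probe sets of microRNAs with AAGUGC in the seed differed in the group where they were high. Mir290a, of the cluster that is characteristic of mouse stem cells, had 8.37, 8.48 and 8.05 in iPSC, 5.00, 3.84 and 4.38 on day 5 and 2.06, 2.34 and 1.97 in GFP- cells, a fall of 6.17 ± 0.247 (SE; 72.2-fold). The Mir302 genes, which are active in the primed epiblast, were chosen after their values were seen and were higher on day 5 than in iPSC or GFP- cells. Mir302b had a mean of 1.97 in iPSC, 4.91, 4.27 and 3.80 on day 5 and 1.57, 1.76 and 1.95 in GFP- cells, which was 2.57 below day 5 (5.92-fold, adjusted p = 2.65e-06) and not called against iPSC (-0.21). Mir302d had 2.03, 3.79 and 1.89 in the same order. Mir20a, of the Mir17 cluster and likewise chosen after its values were seen, had 4.88, 4.70 and 4.67 in iPSC and 2.37, 3.88 and 3.33 in GFP- cells, a fall of 1.56 (adjusted p = 0.00242), and its host transcript Mir17hg fell by 1.39.

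The Lin28 proteins block maturation of let-7 microRNAs. Of 11 let-7 probe sets 2 were higher than in iPSC (18.2%), 1 was lower (9.09%) and the median difference was -0.07. The probe sets of the family thus did not move one way, and mature let-7 was not measured apart from its precursors. The 3 called were named after their values were seen. Mirlet7e had a mean of 3.18 in iPSC, 3.59 on day 5 and 4.06, 5.26 and 5.08 in GFP- cells, a rise of 1.62 (3.07-fold, adjusted p = 4.69e-05). Mirlet7i rose by 0.98 (adjusted p = 0.00673), with 3.61 in iPSC and 3.82, 5.26 and 4.68 in GFP- cells. In both, GFP- sample 3 was the lowest of the GFP- samples. Mirlet7d fell by 0.87 (adjusted p = 0.0182), a call that was lost without iPSC sample 5 or without GFP- sample 3 or 6 if each was left out alone.

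Of the 57 higher microRNA probe sets, 26 lay in one imprinted region of chromosome 12. Between Dlk1 and Mirg, at 109452485 to 109749458 on GRCm38.p6, these were 26 of 48 microRNA probe sets measured (54.2%) and none lower, with a median difference of 0.59. Of the other 481, 31 were higher (6.44%) and 39 lower (8.11%). Of the 26, the samples of iPSC and GFP- cells did not overlap in 17 and overlapped in 9, and GFP- sample 3 was the lowest GFP- sample in 23. Over all probe sets, called or not, these groups did not overlap in 43.7%. Since the 26 were called in this same comparison, their lack of overlap adds no further evidence. The number called higher was 30 without GFP- sample 3 and 16 without GFP- sample 5 or without GFP- sample 6. It was 17 without iPSC sample 6, with none lower each time. Of the 48, 14 were lower than in GFP+ cells, where 2.02% of all probe sets were, with a median difference of -0.63. Neighbouring microRNAs of the region can share a transcript, so they are not independent. Its long noncoding RNAs were chosen after their values were seen: Meg3 rose by 2.12 from 6.61, Rian by 1.53 from 7.01 and Mirg by 1.05. Dlk1, the protein-coding gene of the region, read from the other parental allele, rose by 2.42 from 4.83, with 4.86 on day 5, and was 1.42 below GFP+ cells (adjusted p = 0.00336).

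Other imprinted genes rose as well, and some fell. Of 20 measured genes of the imprinted list 12 were higher (60%) and 5 lower (25%), with a median of 0.95. Of all probe sets 16.3% were higher and 17.7% lower. Igf2, a fetal growth factor, went from 6.03 in iPSC to 8.14 on day 5 and 10.58 in GFP- cells, a rise of 4.55 (23.5-fold). Its neighbour H19, a noncoding RNA, rose by 3.10 from 7.22 with 7.64 on day 5, and Plagl1, a zinc finger factor, by 4.02 from 5.36 with 4.82 on day 5. Mest, a hydrolase-like gene of mesoderm, rose by 2.84 with 11.81 on day 5 and 11.40 in GFP- cells. The 5 lower genes were Grb10, Phlda2, Ascl2, Igf2r and Impact. Grb10, an adaptor that limits insulin signalling and named after its values were seen, as were Phlda2, Igf2r and Impact, fell by 2.35 from 6.97, with 3.34 on day 5.

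**Figure D5:**
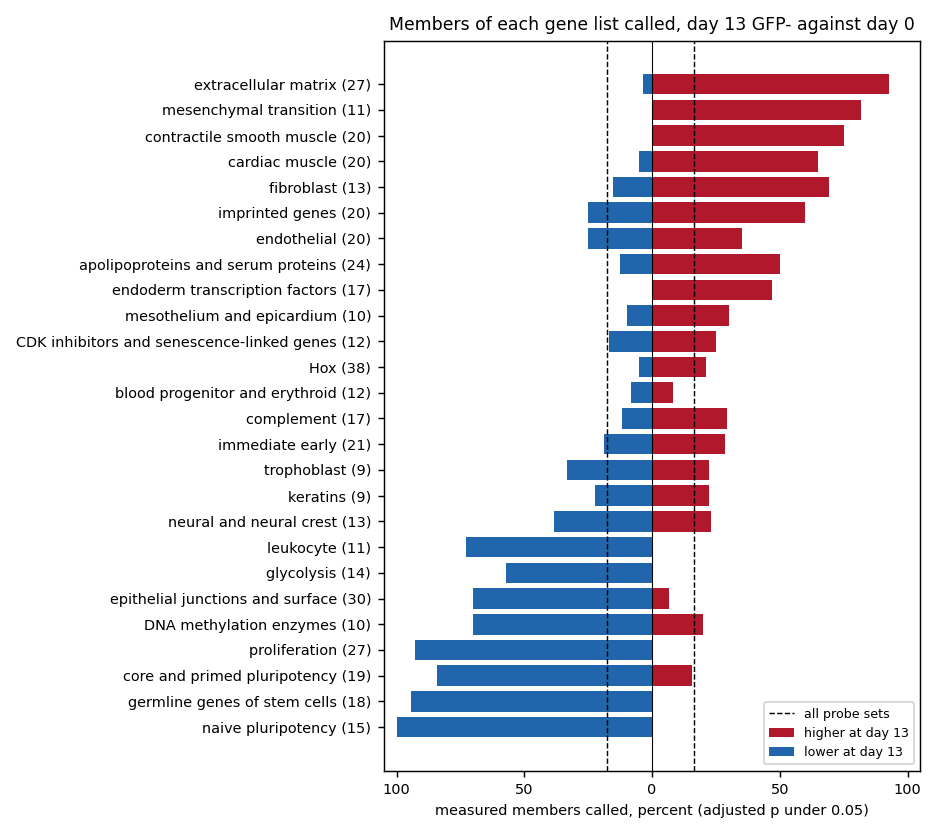
Percent of measured members of each gene list called higher (right) or lower (left) in day 13 GFP- cells than in iPSC by limma (3 samples per group), with dashed lines at 16.3% and 17.7%, the shares of all probe sets. The naive list is at 100% lower and the matrix list holds 25 of 27 genes higher.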

How the data were processed

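The authors deposited log2 values after robust multi-array averaging (RMA), per the submitters' processing notes with affy 1.36.1 and R 2.15.1. The chip definition and genome build were not given in the sources used here. In 25.6% of probe sets 2 or more samples hold equal values. Symbols were taken from probe set gene IDs (23185 named, 2021 not). From the deposited log2 values, limma 3.58.1 (R 4.3.3) was fitted to all 15 samples as 5 groups (10 residual and 5.09 prior degrees of freedom), without further scaling, and p-values were adjusted by Benjamini-Hochberg over 25206 probe sets with a threshold of 0.05. The procedure was tested on simulated data. The members and the 26 gene lists were chosen with earlier results of these data known. Named were Acta2 and Kdr, up to 12 highest and 12 lowest called, non-overlapping genes with curated names, all members of the pluripotency, germline, epithelial and keratin lists, and up to 4 largest of each other list. The text says of any other gene that its values were known when it was chosen. Deviations from the group mean correlated between equal numbers of the day 13 sorts (0.597, 0.403 and 0.397). Unequal numbers 5 and 6 correlated as well (0.278 and 0.345), while 3 with 5 or 6 gave -0.419 to -0.500. The pattern thus set sample 3 apart, and pairing of 5 and 6 by number is weakly founded. Equal numbers did not pair iPSC with GFP- cells (-0.0429, -0.091 and 0.079) nor day 5 with GFP- cells (0.046, -0.0115 and 0.0572). Alternatives were other scalings, array weights, a level filter, a 2-fold null, a 2-group fit, the replicate block and leaving out samples.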

Additional observations from a re-analysis of the deposited data

How the results depend on the processing

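No result reversed. Against 8573 probe sets called (34%), the number was 7900 with only the groups compared, 7097 among probe sets above the median mean level, 1746 against a 2-fold null, 7635 to 8598 with 1 sample left out and 10911 with array weights. The replicate block, with numbers that do not pair iPSC and GFP- cells, called 9357 as a fixed term and 9195 as a random one (consensus correlation 0.0377). Testing against a 2-fold null left 956 probe sets higher and 790 lower, with 1 core and primed gene higher, 11 germline, 7 epithelial and 0 keratin genes lower. Among probe sets above the median mean level, 8 naive, 1 germline, 13 epithelial and 0 keratin genes were lower and 1 core and primed gene higher, since fewer genes were tested. Leaving out each sample in turn gave 3686 to 4120 higher and 3923 to 4478 lower probe sets, 19 to 21 epithelial, 15 to 17 germline and 2 to 3 keratin genes lower, with 15 naive and 16 core and primed genes lower each time. Of 209 named genes, 60 lost their call against the 2-fold null and at most 4 under any other single setting. With 3 arrays per group and no detection calls, small differences at low levels were not resolved.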

Other observations

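Further lists are given beside the 16.3% of all probe sets that were higher and the 17.7% that were lower. Of 14 glycolysis genes, 8 were lower (57.1%) and none higher, or 12 lower without GFP- sample 3. Pfkp, the platelet-type phosphofructokinase, had 9.92, 9.91 and 9.91 in iPSC, a mean of 5.62 on day 5 and 8.33, 7.34 and 7.41 in GFP- cells, so it was 2.22 below iPSC (4.65-fold) and 2.08 above day 5. Of 21 immediate early genes, 6 were higher (28.6%) and 4 lower (19%) with a median of -0.03, the latter being Fosb, Dusp1, Egr2 and Fos. Fosb was 2.26 below iPSC and Dusp1, a phosphatase of MAP kinases, 1.54 below, while Fosl2 was 1.79 above. Whether handling during the sort contributes to these levels was not tested.

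Of 38 Hox genes, 8 were higher in GFP- cells than in iPSC (21.1%, near the share of all probe sets) and 2, Hoxc13 and Hoxc4, lower (5.26%), with a median of 0.21. Hoxd13 rose by 1.82 from 3.39 and Hoxb4 by 1.72 from 2.85. Of 17 complement and related genes, 5 were higher (29.4%: Clu, Masp1, Cd55, Serping1 and Cfi) and 2 lower (11.8%: C1qb and C2) with a median of -0.03, or 1 lower without iPSC sample 5. Egr2, Fos, Hoxc13, Hoxc4, Serping1, Cfi and C2 were named after their values were seen. Clu, which encodes clusterin, had 7.49 in iPSC, 4.56 on day 5 and 10.85 in GFP- cells, a rise of 3.36 (10.3-fold) from iPSC. Masp1, a protease of the lectin pathway, rose by 3.23 (9.36-fold) and had 6.37 on day 5 and 6.81 in GFP- cells.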
